A study of Homo sapiens with 12 samples.

Results

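The replication-dependent core histone genes, which encode the H2A, H2B, H3 and H4 proteins of the nucleosome, were examined in HuH-7, an established hepatocellular carcinoma cell line that carries p53 mutant Y220C in every sample. The members were the gene probes of the array whose gene name starts with HIST1, HIST2, HIST3 or HIST4 and continues with H2A, H2B, H3 or H4. This gave 82 of 41000 gene probes, or 60 of 29123 gene names. Cells received the vehicle DMSO, 28 µM SLMP53-2 (2 times the IC50) or 42 µM SLMP53-2 (3 times the IC50), and RNA was taken after 24 h from 4 biological replicates per group. The titles and protocol of the higher dose group give 42 µM, whereas its treatment label gives 48 µM for the same arrays. SLMP53-2 is a small molecule under study as a reactivator of mutant p53, and the comparison asked how the transcriptome of these cells responded to it. The single cell line limits the groups as a model, and the 4 cultures of a group are the replicates throughout.

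Core histone genes lie in clusters, have no introns in their classical form and are transcribed mainly in S phase, when newly made DNA has to be packed into nucleosomes. NPAT, activated by cyclin E and CDK2, drives their transcription, and the stem-loop binding protein SLBP carries most of their mRNAs, which end in a stem-loop in place of a poly(A) tail. The mRNAs are degraded when DNA synthesis stops. Some of the genes, HIST2H2BE and HIST1H2BK among them, can also give longer, polyadenylated transcripts. The labelling kit used here starts from poly(A), so which transcript forms the signal came from was not measured. In a bulk culture, fewer cells in S phase and less histone mRNA per cell cannot be told apart.

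Several core histone genes are near-identical in their coding part, and 60-base probes then tell them apart only in part. An H3 pair whose probes start at the same base of their transcripts shows how close the probes are, because the first was called lower at 42 µM and the second had a log2 ratio near 0. The probe of HIST2H3D (H3C13) lies at chr1:120905001-120905060 and that of HIST3H3 (H3-4) at chr1:228612646-228612705 in the hg19 build of the array files. They share 52 of 60 bases (86.7%), and capitals mark the 8 positions that differ.
HIST2H3D probe: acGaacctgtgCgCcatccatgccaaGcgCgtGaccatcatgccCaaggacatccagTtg
HIST3H3 probe: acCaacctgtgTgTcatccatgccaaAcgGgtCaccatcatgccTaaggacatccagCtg
The stem-loop that ends the mRNA was contained in 2 of 41000 gene probes, both of them core histone probes. In both, capitals mark the stem and lower case the loop of the 16-base element.
HIST2H2AA4 stem-loop: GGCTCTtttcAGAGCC
HIST1H4K stem-loop: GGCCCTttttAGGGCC

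Promoters were taken from RefSeq (GRCh38.p14) as the 250 bases before the start of transcription, and 54 of the 60 genes had an entry. The motifs searched on both strands were the TATA box as TATAAA, the CCAAT box as CCAAT, the octamer bound by OCT1 as ATTTGCAT, and GGTCCG, a part of the element found in H4 promoters. The CCAAT letters were present in 14 of 14 H2A, 17 of 17 H2B and 11 of 11 H3 genes but in 3 of 12 H4 genes, against 37.0% of all genes with an entry. The octamer was present in 11 H2A and 13 H2B genes, in 1 H3 gene and in 0 H4 genes, against 2.03% of all genes. GGTCCG was present in 11 of 12 H4 genes and in 1 gene of each other family, against 11.3% of all genes, and TATAAA in 38 of the 54 genes, against 13.0%. The families whose mRNA levels are compared here therefore differ in these promoter letters. The windows below belong to the gene named by the probe with the largest fall in each family. They are followed by that of HIST3H3, whose probe was not called. The HIST2H4B probe also lists H4C14 and lies on the plus strand in hg19, whereas the HIST2H4B window lies on the minus strand. The HIST2H3A probe lists 3 genes. The falls of these probes therefore cannot be assigned to the windows shown. Capitals mark the 4 motifs on either strand, and no 2 motifs overlapped in these windows.
HIST1H2AM (H2AC17), chr6:27893186-27893435, minus strand: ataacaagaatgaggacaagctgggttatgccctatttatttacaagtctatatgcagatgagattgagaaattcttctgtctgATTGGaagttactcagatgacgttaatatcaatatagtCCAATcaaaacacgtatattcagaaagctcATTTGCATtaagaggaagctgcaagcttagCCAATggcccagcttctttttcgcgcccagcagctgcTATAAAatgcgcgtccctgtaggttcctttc
HIST1H2BC (H2BC4), chr6:26123927-26124176, minus strand: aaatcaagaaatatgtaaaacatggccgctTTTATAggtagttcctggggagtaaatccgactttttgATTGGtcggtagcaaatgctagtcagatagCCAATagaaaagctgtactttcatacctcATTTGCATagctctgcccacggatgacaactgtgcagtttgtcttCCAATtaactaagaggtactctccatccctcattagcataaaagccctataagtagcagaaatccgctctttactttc
HIST2H3A (H3C15), chr1:149852358-149852607, plus strand: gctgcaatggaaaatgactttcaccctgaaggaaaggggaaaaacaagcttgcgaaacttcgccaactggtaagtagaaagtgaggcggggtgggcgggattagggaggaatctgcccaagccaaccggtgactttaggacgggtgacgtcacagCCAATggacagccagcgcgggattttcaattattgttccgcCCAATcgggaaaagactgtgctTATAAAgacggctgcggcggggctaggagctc
HIST2H4B (H4C15), chr1:149861160-149861409, minus strand: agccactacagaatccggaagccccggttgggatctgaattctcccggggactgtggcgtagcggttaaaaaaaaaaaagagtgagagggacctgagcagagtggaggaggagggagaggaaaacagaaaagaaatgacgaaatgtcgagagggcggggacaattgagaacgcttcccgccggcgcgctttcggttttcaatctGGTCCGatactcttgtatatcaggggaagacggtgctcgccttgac
HIST3H3 (H3-4), chr1:228425361-228425610, minus strand: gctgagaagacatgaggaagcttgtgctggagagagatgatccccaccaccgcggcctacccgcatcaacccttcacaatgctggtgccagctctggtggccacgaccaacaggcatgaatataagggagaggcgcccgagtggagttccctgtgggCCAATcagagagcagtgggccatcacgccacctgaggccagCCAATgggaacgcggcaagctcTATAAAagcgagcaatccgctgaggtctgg
HIST3H3 carried the same kinds of motif as HIST2H3A, with 2 CCAAT boxes and 1 TATA box in each. A match of letters is a description of the window and does not show that a factor binds there.

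Levels are log2 of background-corrected, quantile-normalized intensity, so that a difference of 1 is a factor of 2, and the log2 ratio is the mean level of a treated group minus that of DMSO. Of the 82 probes, 75 were above background on at least 2 of 4 arrays of some group and entered the fit, which held 33467 probes in all. The 7 probes left out were HIST1H2BA, HIST1H4G, the transcript-end probes of HIST1H2AG, HIST1H2AK, HIST1H2BN and HIST3H2BB, and a HIST1H3F probe that maps outside its gene. They were above background on 0 or 1 array of any group. A probe was called when limma gave an adjusted p below 0.05 over all probes and the log2 ratio was at least 0.6 in either direction.

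At 42 µM the core histone probes were lower as a family. Of the 75 tested, 74 had a log2 ratio below 0, against 52.5% of all tested probes, and 51 were called lower, where 1.23% of all tested probes were called lower; 0 were called higher, against 1.41%. At an unadjusted p below 0.05 and a log2 ratio of at most -0.6 there were 63, against 2.1%. The median log2 ratio was -1.23, a 2.34-fold lower level, and that of all tested probes was -0.01. On 59 of the 75 probes every 42 µM array lay below every DMSO array, against 6.49% of all probes. H2A had 15 of 21 probes called and a median of -1.12, H2B 18 of 22 and -1.31, H3 12 of 18 and -1.20, and H4 6 of 14 and -1.24. The share of calls was lowest in H4, although its median was within 0.2 of the others. The H4 probes also had the widest spread among DMSO arrays, with a median SD of 0.55 against 0.23 in H2A, 0.27 in H2B and 0.30 in H3.

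The calls at 42 µM depended on single arrays, over the whole array as well as in the histones. All arrays together gave 885 called probes in either direction among the 33467 tested. Without DMSO replicate 2 none of the 75 probes was called (smallest adjusted p = 0.0505), and 60 still had an unadjusted p below 0.05 with a log2 ratio of at most -0.6, against 63 with all arrays, while the limma median was -1.12. Over all tested probes 0 were called in that setting. Without 42 µM replicate 2 limma called none either (smallest adjusted p = 0.0522, median -1.12), with 0 over all tested probes. Without DMSO replicate 4, 32 core histone probes were called, among 321 over all tested probes. With the slide as a fixed block in limma, none was called (smallest adjusted p = 0.0560, median -1.24) and 1 was over all tested probes. With the slide as a random block 59 were called, among 1117 over all tested probes. Within the 3 slides that held both groups, the median 42 µM minus DMSO difference of the 75 probes was -1.29, -1.44 and -1.26.

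**Figure D1:**
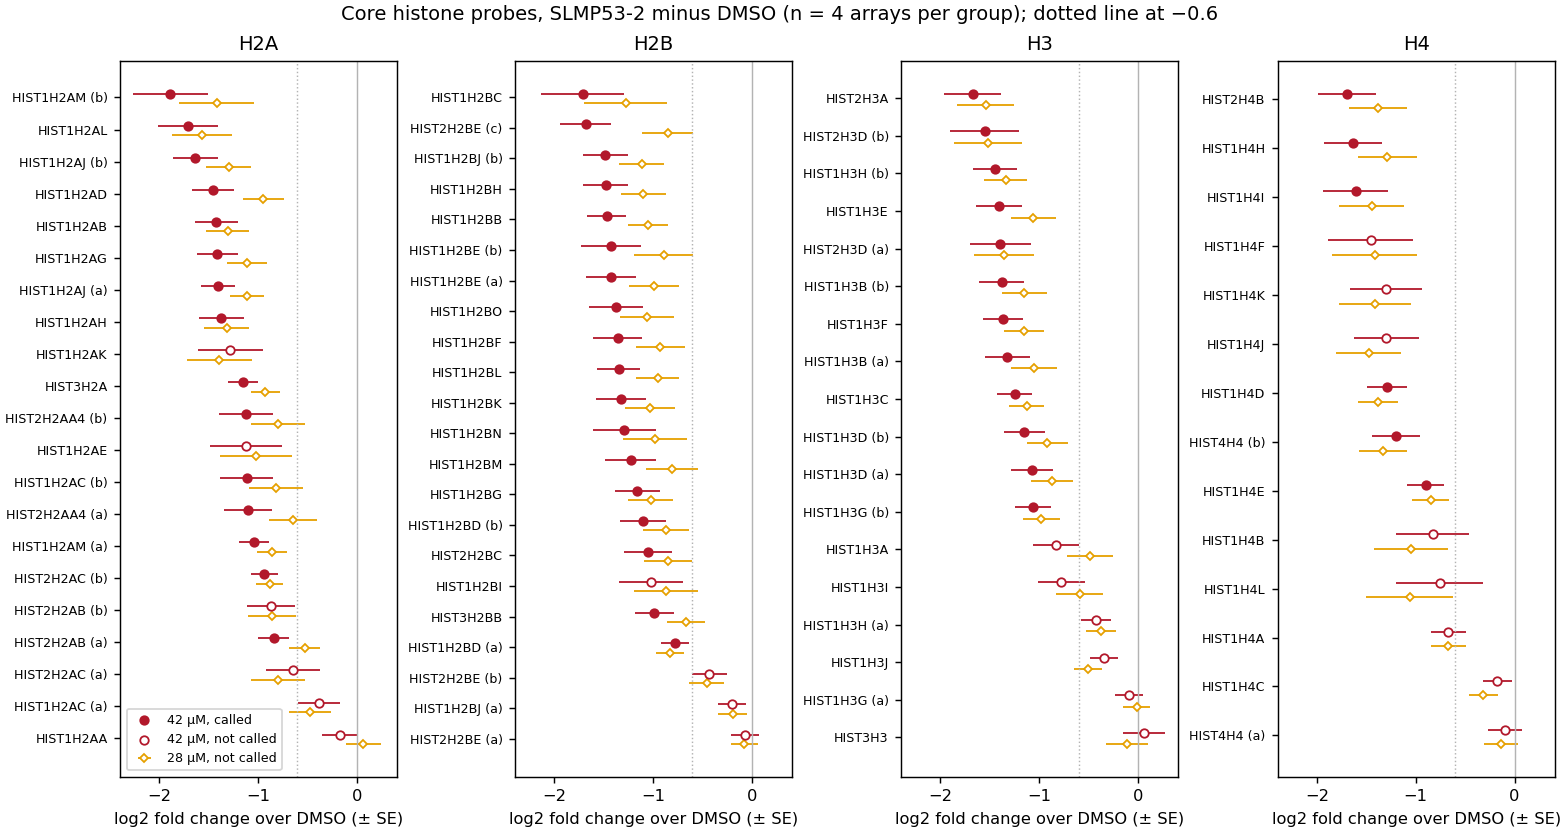
Log2 ratio over DMSO (± SE, n = 4 arrays per group) of the 75 tested core histone probes, one panel per family, with 42 µM as circles (filled when called) and 28 µM as diamonds; letters mark probes of 1 gene. At 42 µM the probes range from -1.89 to 0.06, and HIST3H3, HIST1H4C and several transcript-end probes lie near 0.

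At 28 µM the core histone probes were also lower by median, and no call was made. The median log2 ratio was -0.98, with 74 of 75 probes below 0 (52.5% of all tested), and 0 probes were called by limma (smallest adjusted p = 0.115), as was the case for 0% of all tested probes. At an unadjusted p below 0.05 and a log2 ratio of at most -0.6 there were 61 of 75, against 1.02% of all probes, and on 42 of 75 every 28 µM array lay below every DMSO array, against 2.68%. The family medians were -0.92 for H2A, -0.91 for H2B, -1.02 for H3 and -1.31 for H4. Without 28 µM replicate 4, limma called 37 core histone probes (smallest adjusted p = 0.00145), of which 11 were H2A, 14 H2B, 9 H3 and 3 H4, and all 37 were among the 51 called at 42 µM. Leaving out that array gave 719 calls in either direction over all 33467 probes, against 0 with all arrays. Both contrasts share the DMSO arrays. Against the DMSO array of the same slide, the median difference of the 75 probes was -0.92, -0.64 and -0.59 on 28 µM replicates 1, 3 and 4. Replicate 2 had no DMSO array on its slide. Between the doses 0 probes were called (limma, smallest adjusted p = 0.9995), 1 passed at an unadjusted p below 0.05 with a log2 difference of at most -0.6 (0.167% of all tested), and the median 42 µM minus 28 µM difference was -0.18. That 1 probe was HIST2H2BE at base 143, with a log2 difference of -0.83. It was 1 of 2 core histone probes (0.852% of all tested) whose 42 µM arrays all lay below all 28 µM arrays, the other being HIST2H2AB at base 254 (-0.31).

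The 4 arrays at 28 µM were not alike in the families. Relative to the DMSO mean, the median H2A level on replicates 1 to 4 was -0.80, -1.36, -0.76 and -0.94, and the H3 level was -0.95, -1.23, -0.86 and -0.82. The H2B level was -0.95, -1.29 and -0.94 on replicates 1, 2 and 3 but -0.20 on replicate 4. The H4 level was -0.79, -1.39 and -1.05 on the first 3 and -1.40 on replicate 4, so that replicates 2 and 4 were alike. Against the DMSO array of the same slide, the H4 median was -0.78, -0.80 and -0.80 on replicates 1, 3 and 4. The H2B median was -1.12, -0.63 and -0.34 in the same comparison. DMSO arrays ranged from -0.11 to 0.04 for H2B and from -0.56 to 0.63 for H4. The lowest H4 value in DMSO, -0.56, was that of replicate 3, which shared a slide with 28 µM replicate 4. The 42 µM array with the lowest H4 value, replicate 2 at -1.61, lay on that slide too. Whether the slide had a part in these H4 levels was not tested. On replicate 4 at 28 µM, the medians of all 4 families lay below those of all DMSO arrays, H2B by the least.

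**Figure D2:**
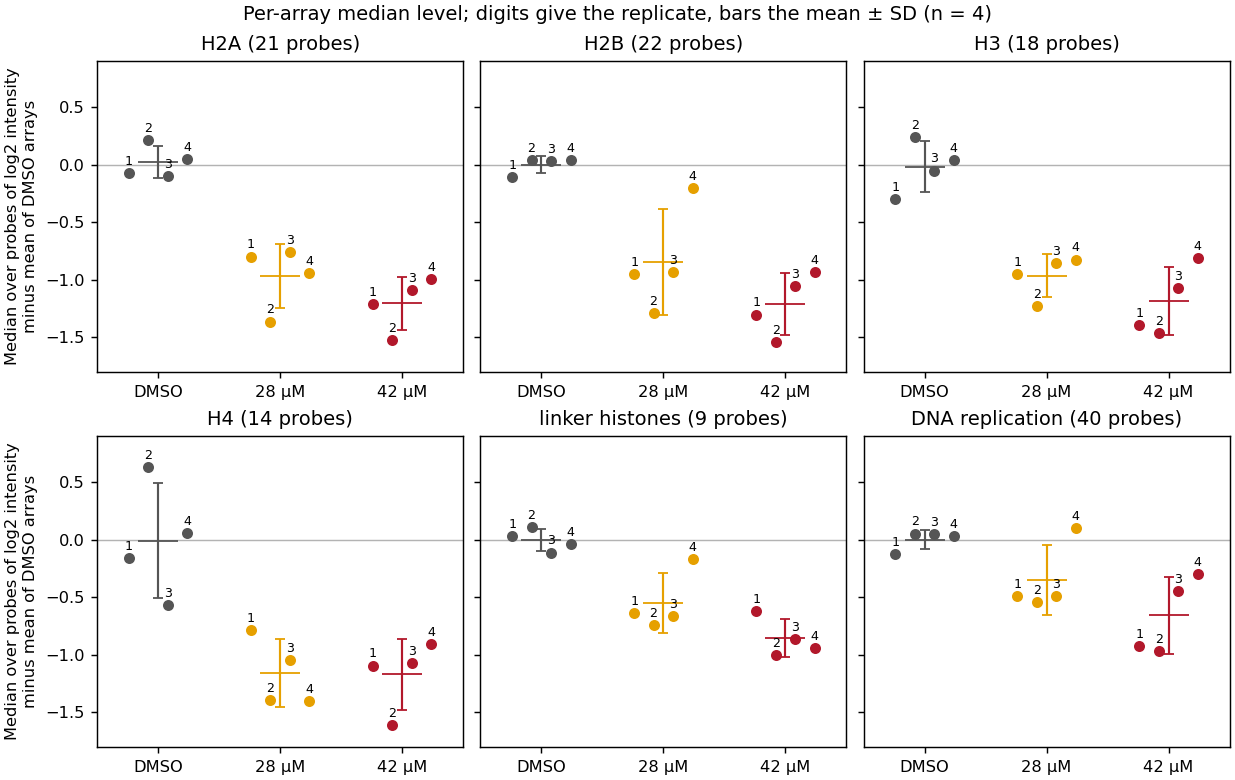
Median over the probes of each family (and of the linker histone and DNA replication lists) of log2 intensity minus the mean of the DMSO arrays, 1 point per array with the replicate number, bars giving mean ± SD of 4 arrays. Replicate 4 at 28 µM sits near 0 for H2B, linker histones and DNA replication genes and at -1.40 for H4.

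By probe, replicate 4 was the highest of the 4 arrays at 28 µM for 21 of 22 H2B probes. It was the lowest for 7 of 14 H4 probes, and such ranks were not counted over all tested probes. It lay below all DMSO arrays for 18 of 21 H2A, 10 of 22 H2B, 15 of 18 H3 and 13 of 14 H4 probes, 56 in all, where 19.1% of all tested probes did. On replicates 1, 2 and 3 the counts were 62, 71 and 65 of 75, against 37.2%, 28.8% and 22.1% of all probes, and on the 42 µM arrays 69, 70, 65 and 65, against 30.4%, 22.6%, 24.4% and 24.3%. The H2B probes split on replicate 4. Those of HIST1H2BE, HIST1H2BF, HIST1H2BK, HIST1H2BN and HIST2H2BE (base 143) were at -0.11 to 0.10 relative to the DMSO mean there and at -1.34 to -1.12 on the mean of the other 3 arrays. HIST1H2BF read 12.18, 12.14, 12.55 and 13.52 on the 28 µM arrays, against 13.49, 13.41, 13.69 and 13.49 in DMSO and 11.94, 12.05, 12.29 and 12.37 at 42 µM. HIST1H2BK, whose probe lies at base 660 of its transcript, read 13.10, 12.68, 13.12 and 14.19 at 28 µM against 14.32, 14.05, 14.48 and 14.37 in DMSO. These probes are not independent of each other, since those of HIST1H2BE and HIST1H2BF share 56 of 60 bases and those of HIST1H2BN and HIST2H2BE 54 of the 56 that overlap. HIST1H2BH, HIST1H2BB and HIST1H2BO, by contrast, stayed below all DMSO arrays on replicate 4. Outside H2B, the probes not below all DMSO arrays on replicate 4 were both of HIST2H2AA4, HIST1H2AC at base 1145, HIST1H3J and the transcript-end probes of HIST1H3G, HIST1H3H and HIST4H4.

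**Figure D3:**
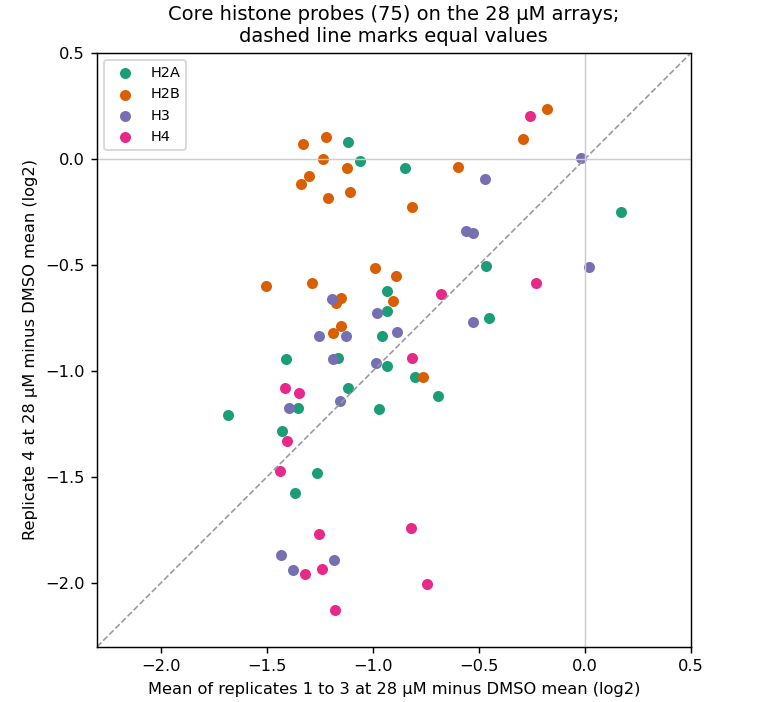
Each of the 75 core histone probes as its level on replicate 4 at 28 µM (vertical) against the mean of replicates 1 to 3 (horizontal), both as log2 difference from the DMSO mean, coloured by family; the dashed line marks equal values. Of the H2B probes, 21 of 22 lie above the line, up to 0.24, and H4 probes reach -2.13.

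H2A, which with H2B forms the dimers at the outside of the nucleosome core, fell most at HIST1H2AM (H2AC17, chr6:27860507-27860566). Its probe A_32_P221799 read 11.12, 11.34, 10.22 and 10.78 in DMSO, 10.32, 8.48, 9.70 and 9.29 at 28 µM and 9.70, 8.41, 8.54 and 9.26 at 42 µM. All 42 µM arrays lay below DMSO, whereas replicate 1 at 28 µM lay within the DMSO range. The log2 ratio was -1.89 ± 0.38 (SE, adjusted p = 0.0204) at 42 µM and -1.42 ± 0.38 (SE, adjusted p = 0.208) at 28 µM. HIST1H2AL (H2AC16, chr6:27833502-27833561) read 9.55, 9.56, 9.05 and 9.55 in DMSO, 8.15, 7.04, 8.05 and 8.22 at 28 µM and 7.85, 6.81, 8.00 and 8.22 at 42 µM. Both doses lay below all DMSO arrays, with a log2 ratio of -1.71 ± 0.31 (SE, adjusted p = 0.0156) at 42 µM. HIST1H2AJ was the third, with 2 probes that both fell and that both also list H2AC13. The probe A_24_P394510 read 11.70, 12.10, 12.21 and 12.07 in DMSO and 10.07, 10.19, 10.42 and 10.87 at 42 µM, a log2 ratio of -1.63 ± 0.23 (SE, adjusted p = 0.0112), and A_23_P168014 gave -1.41 ± 0.17 (SE, adjusted p = 0.0112). The second HIST1H2AM probe, A_24_P86389, fell by 1.04 on the log2 scale (SE 0.15, adjusted p = 0.0112), with values of 13.65, 13.90, 13.45 and 13.73 in DMSO and 12.66, 12.55, 12.53 and 12.85 at 42 µM.

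The other called H2A probes of the HIST1 cluster moved between -1.11 and -1.45 at 42 µM. HIST1H2AB (H2AC4) was at 11.44 ± 0.27 in DMSO, 10.13 ± 0.33 at 28 µM and 10.02 ± 0.41 at 42 µM, with a log2 ratio of -1.42 ± 0.22 (SE, adjusted p = 0.0112). HIST1H2AD (H2AC7) was at 12.04 ± 0.28 in DMSO, 11.09 ± 0.28 at 28 µM and 10.58 ± 0.41 at 42 µM, with a log2 ratio of -1.45 ± 0.21 (SE, adjusted p = 0.0112). HIST1H2AG (H2AC11) was at 13.18 ± 0.19 in DMSO, 12.07 ± 0.49 at 28 µM and 11.77 ± 0.17 at 42 µM, with a log2 ratio of -1.41 ± 0.20 (SE, adjusted p = 0.0112). In these 3 all arrays of both doses lay below DMSO. HIST1H2AH (H2AC12) was at 12.18 ± 0.30 in DMSO, 10.86 ± 0.35 at 28 µM and 10.81 ± 0.43 at 42 µM, with a log2 ratio of -1.37 ± 0.23 (SE, adjusted p = 0.0131). HIST1H2AC was the one gene of the family whose transcript-end probe was called and whose probe near the start was not. The probe at base 1145 read 10.28, 10.41, 10.40 and 10.31 in DMSO, 9.57, 8.84, 9.29 and 10.43 at 28 µM and 9.77, 8.96, 9.09 and 9.13 at 42 µM, a log2 ratio of -1.11 ± 0.27 (SE, adjusted p = 0.0428). The probe at base 30 gave -0.38 ± 0.21 (SE, adjusted p = 0.441), from 9.15 ± 0.23 in DMSO to 8.77 ± 0.28 at 42 µM (SD, n = 4). The HIST1H2AC probes are listed on different transcripts. They lie at chr6:26138822-26138881 and chr6:26124403-26124462 (hg19), further apart than their base numbers. HIST1H2AA, HIST1H2AK and HIST1H2AE had no call. HIST1H2AA was near background at 6.39 ± 0.13 in DMSO with a log2 ratio of -0.17, HIST1H2AK was at -1.28 ± 0.33 (SE, adjusted p = 0.0558) and HIST1H2AE at -1.12 ± 0.37 (SE, adjusted p = 0.130). The 42 µM arrays of HIST1H2AK all lay below DMSO.

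The 6 H2A probes of the HIST2 cluster had a median log2 ratio of -0.90 and the 14 of HIST1 one of -1.39, a difference that was not tested. HIST3H2A (H2AC25) read 14.33, 14.36, 14.19 and 14.19 in DMSO, 13.28, 13.06, 13.61 and 13.44 at 28 µM and 12.90, 12.87, 13.36 and 13.34 at 42 µM. Every treated array lay below DMSO, and the log2 ratio was -1.15 ± 0.15 (SE, adjusted p = 0.0112). Of the 2 HIST2H2AA4 probes, the one at the stem-loop (base 477) gave -1.10 ± 0.24 (SE, adjusted p = 0.0299) and the one at base 0 -1.12 ± 0.28 (SE, adjusted p = 0.0447). Their group means went from 13.86 ± 0.22 to 12.76 ± 0.29 and from 11.57 ± 0.21 to 10.45 ± 0.37. The 2 probes also list H2AC18. Both HIST2H2AC and HIST2H2AB had overlapping probes that differed in call. For HIST2H2AC, A_24_P8721 read 14.05, 14.11, 14.09 and 14.03 in DMSO and 12.86, 13.04, 13.35 and 13.30 at 42 µM, a log2 ratio of -0.93 ± 0.14 (SE, adjusted p = 0.0112), whereas A_23_P301247 gave -0.64 ± 0.27 (SE, adjusted p = 0.267) from 11.21 ± 0.35 to 10.57 ± 0.45. For HIST2H2AB, A_23_P343927 gave -0.84 ± 0.15 (SE, adjusted p = 0.0159) from 8.01 ± 0.28 to 7.17 ± 0.07, and A_24_P68631 gave -0.87 ± 0.25 (SE, adjusted p = 0.0805) from 9.48 ± 0.49 to 8.61 ± 0.42.

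H2B had the largest share of called probes. HIST1H2BC (H2BC4, chr6:26123983-26124042) read 9.73, 10.16, 9.77 and 9.48 in DMSO, 9.16, 7.19, 8.50 and 9.19 at 28 µM and 8.51, 7.36, 7.53 and 8.90 at 42 µM. All treated arrays lay below DMSO but were spread over more than 1 log2 unit at either dose, and the log2 ratio was -1.71 ± 0.42 (SE, adjusted p = 0.0451). HIST2H2BE (H2BC21) at base 143 (A_24_P156911) read 11.94, 12.06, 12.49 and 11.76 in DMSO, 10.64, 10.76, 11.42 and 12.02 at 28 µM and 10.36, 10.53, 10.21 and 10.42 at 42 µM. The 42 µM arrays were tight and low while replicate 4 at 28 µM lay within the DMSO range. The log2 ratio was -1.68 ± 0.26 (SE, adjusted p = 0.0112) at 42 µM and -0.85 ± 0.26 (SE, adjusted p = 0.244) at 28 µM. That probe also lists HIST1H2BO (H2BC17) among its accessions. HIST1H2BJ (H2BC11) at base 198 read 10.40, 10.699, 10.27 and 10.34 in DMSO and 8.90, 8.51, 9.22 and 9.14 at 42 µM, with a log2 ratio of -1.48 ± 0.23 (SE, adjusted p = 0.0112).

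Further HIST1 H2B probes were called within the coding part. HIST1H2BH (H2BC9) was at 11.79 ± 0.36 in DMSO, 10.69 ± 0.37 at 28 µM and 10.31 ± 0.35 at 42 µM, with a log2 ratio of -1.48 ± 0.23 (SE, adjusted p = 0.0112). HIST1H2BB (H2BC3) was at 11.21 ± 0.39 in DMSO, 10.16 ± 0.25 at 28 µM and 9.74 ± 0.27 at 42 µM, with a log2 ratio of -1.47 ± 0.20 (SE, adjusted p = 0.0112). HIST1H2BO (H2BC17) was at 11.43 ± 0.53 in DMSO, 10.37 ± 0.30 at 28 µM and 10.06 ± 0.48 at 42 µM, with a log2 ratio of -1.38 ± 0.27 (SE, adjusted p = 0.0198). In all 3 genes all 8 treated arrays were lower than the 4 DMSO arrays. HIST1H2BM (H2BC14) was at 11.21 ± 0.43 in DMSO, 10.40 ± 0.26 at 28 µM and 9.98 ± 0.53 at 42 µM, with a log2 ratio of -1.23 ± 0.26 (SE, adjusted p = 0.0259). HIST1H2BG (H2BC8) was at 9.63 ± 0.30 in DMSO, 8.61 ± 0.40 at 28 µM and 8.47 ± 0.39 at 42 µM, with a log2 ratio of -1.16 ± 0.23 (SE, adjusted p = 0.0193). HIST1H2BN (H2BC15) was at 12.98 ± 0.30 in DMSO, 11.999 ± 0.79 at 28 µM and 11.69 ± 0.38 at 42 µM, with a log2 ratio of -1.29 ± 0.32 (SE, adjusted p = 0.0479). Of these 3, HIST1H2BN overlapped DMSO at 28 µM through replicate 4. HIST1H2BL (H2BC13) was at 14.13 ± 0.08 in DMSO, 13.17 ± 0.59 at 28 µM and 12.78 ± 0.10 at 42 µM, with a log2 ratio of -1.35 ± 0.22 (SE, adjusted p = 0.0126). HIST1H2BE had 2 probes, which list 3 core histone genes each. They went from 13.09 ± 0.14 in DMSO to 11.67 ± 0.20 at 42 µM, a log2 ratio of -1.42 ± 0.25 (SE, adjusted p = 0.0156), and from 12.13 ± 0.34 to 10.701 ± 0.28, a log2 ratio of -1.42 ± 0.30 (SE, adjusted p = 0.0246).

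HIST1H2BF and HIST1H2BK, given above by array, had log2 ratios at -1.36 ± 0.25 (SE, adjusted p = 0.0159) and -1.33 ± 0.25 (SE, adjusted p = 0.0172). The probe of HIST1H2BD (H2BC5) at base 125 went from 11.03 ± 0.18 to 9.93 ± 0.35, a log2 ratio of -1.10 ± 0.23 (SE, adjusted p = 0.0253). Its second probe, A_32_P152348, is placed on the opposite strand in the array files and gave -0.77 ± 0.14 (SE, adjusted p = 0.0164), from 10.03 ± 0.23 to 9.25 ± 0.17. Outside HIST1, HIST3H2BB (H2BC26) at base 217 gave -0.98 ± 0.19 (SE, adjusted p = 0.0187) from 11.53 ± 0.25 to 10.55 ± 0.32. HIST2H2BC (H2BC20P), which RefSeq names as a pseudogene, gave -1.05 ± 0.24 (SE, adjusted p = 0.0363) from 11.15 ± 0.46 to 10.10 ± 0.48. HIST1H2BI was not called at -1.02 ± 0.33 (SE, adjusted p = 0.1199), and its groups overlapped.

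H3, which pairs with H4 at the centre of the nucleosome, fell most in the HIST2 cluster. HIST2H3A (H3C15) read 12.73, 13.78, 12.20 and 12.93 in DMSO, 11.62, 11.04, 11.76 and 11.04 at 28 µM and 11.04, 10.90, 11.35 and 11.64 at 42 µM. DMSO replicate 2 was the highest of all arrays, and every treated array lay below DMSO, with a log2 ratio of -1.67 ± 0.29 (SE, adjusted p = 0.0152) at 42 µM and -1.54 ± 0.29 (SE, adjusted p = 0.142) at 28 µM. Its probe lists 3 HIST2 H3 genes. HIST2H3D (H3C13) had 2 probes that share bases, of which A_23_P115375 lists the same 3 genes as the HIST2H3A probe. A_23_P115375 read 14.12, 15.52, 13.73 and 14.51 in DMSO and 12.77, 12.41, 13.14 and 13.35 at 42 µM, a log2 ratio of -1.55 ± 0.35 (SE, adjusted p = 0.0309), and A_24_P324465 read 14.29, 15.40, 13.74 and 14.49 in DMSO and 13.16, 12.64, 13.29 and 13.26 at 42 µM, a log2 ratio of -1.39 ± 0.31 (SE, adjusted p = 0.0297). HIST3H3, whose probe differs from the last by 8 bases, read 12.57, 13.25, 12.72 and 13.45 in DMSO, 13.11, 13.20, 12.74 and 12.49 at 28 µM and 13.15, 12.83, 12.92 and 13.35 at 42 µM. The 3 groups overlapped, and the log2 ratio was 0.06 ± 0.21 (SE, adjusted p = 0.941). It was the only core histone probe above 0 at 42 µM. HIST3H3 is known as a testis histone.

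In the HIST1 cluster, 9 of 14 H3 probes were called. HIST1H3H (H3C10) at base 182 read 9.56, 10.52, 9.74 and 10.20 in DMSO, 8.76, 8.29, 8.78 and 8.83 at 28 µM and 8.42, 8.23, 8.60 and 8.99 at 42 µM, a log2 ratio of -1.45 ± 0.22 (SE, adjusted p = 0.0112). Both doses lay wholly below DMSO. HIST1H3E (H3C6) was at 12.52 ± 0.21 in DMSO, 11.46 ± 0.36 at 28 µM and 11.11 ± 0.48 at 42 µM, with a log2 ratio of -1.41 ± 0.23 (SE, adjusted p = 0.0129). HIST1H3F (H3C7) was at 11.58 ± 0.33 in DMSO, 10.43 ± 0.33 at 28 µM and 10.21 ± 0.26 at 42 µM, with a log2 ratio of -1.37 ± 0.20 (SE, adjusted p = 0.0112). HIST1H3C (H3C3) was at 12.62 ± 0.30 in DMSO, 11.49 ± 0.24 at 28 µM and 11.37 ± 0.28 at 42 µM, with a log2 ratio of -1.25 ± 0.18 (SE, adjusted p = 0.0112). All treated arrays of these 3 genes lay below all DMSO arrays. The overlapping HIST1H3B probes A_23_P93258 and A_24_P174924 gave -1.38 ± 0.23 (SE, adjusted p = 0.0129) and -1.32 ± 0.23 (SE, adjusted p = 0.0152), from 13.50 ± 0.30 to 12.12 ± 0.48 and from 13.67 ± 0.31 to 12.35 ± 0.53. Those of HIST1H3D, A_23_P219045 and A_24_P217834, gave -1.15 ± 0.21 (SE, adjusted p = 0.0157) and -1.07 ± 0.21 (SE, adjusted p = 0.0192), from 12.21 ± 0.14 to 11.06 ± 0.25 and from 12.75 ± 0.11 to 11.68 ± 0.48. HIST1H3G at base 143 gave -1.06 ± 0.19 (SE, adjusted p = 0.0152), from 12.07 ± 0.25 to 11.01 ± 0.37. HIST1H3A, HIST1H3I and HIST1H3J were not called, at -0.83 ± 0.23 (SE, adjusted p = 0.0782), -0.78 ± 0.24 (SE, adjusted p = 0.105) and -0.34 ± 0.14 (SE, adjusted p = 0.258).

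H4 fell most at HIST2H4B (H4C15), where the array read 12.92, 13.69, 12.30 and 12.68 in DMSO, 11.90, 10.91, 11.67 and 11.57 at 28 µM and 11.44, 10.60, 11.50 and 11.27 at 42 µM. Every treated array lay below DMSO, and the log2 ratio was -1.69 ± 0.29 (SE, adjusted p = 0.0151). The HIST2H4B probe also lists H4C14. HIST1H4H (H4C8) read 9.81, 10.87, 9.38 and 9.67 in DMSO, 8.95, 8.29, 8.52 and 8.83 at 28 µM and 8.68, 7.72, 8.19 and 8.62 at 42 µM, a log2 ratio of -1.63 ± 0.30 (SE, adjusted p = 0.0159). HIST1H4I (H4C9) read 10.88, 12.02, 10.40 and 11.18 in DMSO, 10.30, 9.08, 9.66 and 9.65 at 28 µM and 9.85, 8.91, 9.55 and 9.73 at 42 µM, a log2 ratio of -1.61 ± 0.33 (SE, adjusted p = 0.0215). In all 3 genes DMSO replicate 2 was the highest array, by more than 0.7. HIST1H4D (H4C4) was at 10.20 ± 0.25 in DMSO, 8.81 ± 0.33 at 28 µM and 8.91 ± 0.36 at 42 µM, with a log2 ratio of -1.29 ± 0.20 (SE, adjusted p = 0.0113). HIST1H4E (H4C5) was at 13.14 ± 0.09 in DMSO, 12.29 ± 0.35 at 28 µM and 12.24 ± 0.34 at 42 µM, with a log2 ratio of -0.90 ± 0.19 (SE, adjusted p = 0.0230). In both genes all 8 treated arrays were lower than the 4 DMSO arrays.

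HIST1H4C (H4C3) had the smallest change of the 11 HIST1 H4 probes. It read 15.74, 15.98, 15.89 and 16.05 in DMSO, 15.84, 15.44, 15.77 and 15.33 at 28 µM and 15.86, 15.42, 15.88 and 15.81 at 42 µM. The groups overlapped and the log2 ratio was -0.17 ± 0.15 (SE, adjusted p = 0.671), against a median of -1.29 over the 11 HIST1 H4 probes. Saturation was flagged on 0 gene spots of any array. The HIST1H4C level in DMSO, 15.91 on average, was the highest of the core histone probes. Whether a level this high limits a measured fall was not tested. The HIST1H4C probe had no close partner among the other H4 probes, with 21 of 40 overlapping bases identical to the nearest, HIST1H4B. Also not called were HIST1H4F at -1.46 ± 0.43 (SE, adjusted p = 0.0926), HIST1H4J at -1.30 ± 0.33 (SE, adjusted p = 0.0509), HIST1H4K at -1.30 ± 0.36 (SE, adjusted p = 0.0763), HIST1H4A at -0.67 ± 0.18 (SE, adjusted p = 0.0637), HIST1H4B at -0.83 ± 0.37 (SE, adjusted p = 0.303) and HIST1H4L at -0.76 ± 0.44 (SE, adjusted p = 0.471). HIST1H4B read 10.94, 11.73, 10.62 and 11.74 in DMSO, 10.98, 10.14, 10.20 and 9.52 at 28 µM and 10.83, 9.39, 10.68 and 10.82 at 42 µM. HIST1H4L read 12.50, 13.23, 12.24 and 13.29 in DMSO, 12.78, 11.66, 11.78 and 10.81 at 28 µM and 12.67, 10.80, 12.39 and 12.38 at 42 µM. In both, replicate 4 at 28 µM and replicate 2 at 42 µM were the low arrays of their groups, and the other 3 arrays at 42 µM lay within the DMSO range. These low arrays shared a slide with DMSO replicate 3, the lowest DMSO array for both genes. By place in the transcript, the 4 H4 probes that start at bases 137 to 175 changed by -1.46 to -1.69 and the 8 that start at bases 272 to 300 by -0.17 to -1.30. That grouping by place was likewise chosen after the values were seen and was not tested. The 4 probes at bases 137 to 175 are not independent of each other. HIST1H4F and HIST2H4B share 40 of 43 overlapping bases, HIST1H4I and HIST2H4B 45 of 50, and HIST1H4H and HIST1H4F 45 of 53. Of the later 8, HIST1H4J and HIST1H4K share 40 of 41.

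By median, probes that start at base 500 or later of their listed transcript had log2 ratios closer to 0 than the rest. The grouping was chosen after the values were seen and was not tested. In HIST1H2AC, HIST1H2BJ, HIST1H3G, HIST1H3H and HIST4H4 the near and far probes are listed on different transcripts, so their base numbers are not places in the same mRNA. The 10 tested probes that start at base 500 or later had a median of -0.43 at 42 µM with 4 called, and the 65 others a median of -1.29 with 47 called. Of 16 genes with more than 1 tested probe, 8 had probes that differed in call and 0 had probes of opposite sign. HIST2H2BE gave -1.68 at base 143, -0.06 ± 0.14 (SE, adjusted p = 0.903) at base 1109 and -0.43 ± 0.18 (SE, adjusted p = 0.250) at base 1759, where the last read 8.04, 7.57, 7.84 and 7.74 in DMSO and 7.39, 7.40, 7.27 and 7.40 at 42 µM. HIST1H2BJ gave -1.48 at base 198 (chr6:27100318-27100377) and -0.20 ± 0.14 (SE, adjusted p = 0.593) at base 1304 (chr6:27093288-27093347). HIST1H3G gave -1.06 at base 143 and -0.09 ± 0.14 (SE, adjusted p = 0.851) at base 2196. HIST1H3H gave -1.45 at base 182 and -0.42 ± 0.15 (SE, adjusted p = 0.164) at base 514. HIST4H4 gave -1.20 ± 0.24 (SE, adjusted p = 0.0207) at base 0, from 7.69, 8.67, 7.56 and 8.29 in DMSO to 6.66, 6.63, 7.01 and 7.11 at 42 µM, and -0.10 ± 0.17 (SE, adjusted p = 0.869) at base 729. The far probes of HIST2H2BE (base 1109), HIST1H2BJ, HIST1H3G and HIST4H4 read 6.30 ± 0.05, 6.32 ± 0.14, 6.23 ± 0.05 and 6.46 ± 0.16 in DMSO and were not well above background on 1 or more arrays, which leaves little room for a measured fall. The 4 far probes that were called, HIST1H2AC at base 1145, HIST1H2BK at base 660 and both of HIST1H3D at bases 615 and 655, were above background on all 12 arrays. The HIST1H3D probe at base 655 shares 41 of 45 overlapping bases with the HIST1H3F probe at base 188. That at base 615 shares 36 of 42 with the HIST1H3G probe at base 143. A late start in the listed transcript therefore did not place these 2 beyond the sequence that near probes cover.

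**Figure D4:**
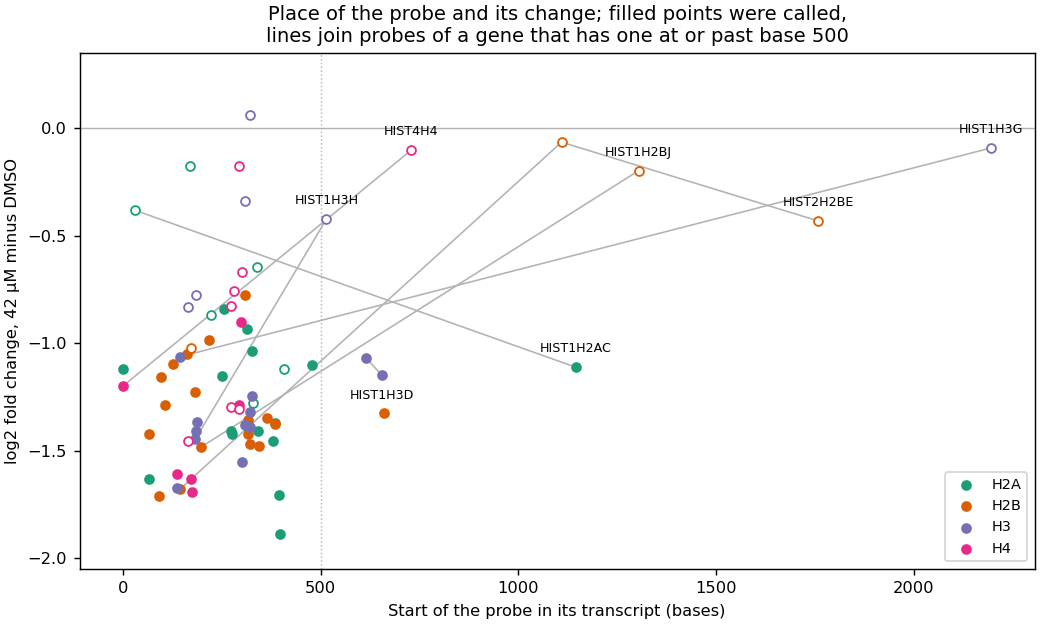
Log2 ratio at 42 µM of the 75 probes against the start of the probe in its transcript (bases), coloured by family, filled when called, with lines joining probes of a gene that has one at or past base 500 (dotted line). In HIST2H2BE, HIST1H2BJ, HIST1H3G, HIST1H3H and HIST4H4 the far probe lies at -0.06 to -0.43 and the near one at -1.06 to -1.68. Near and far probes of a gene can be listed on different transcripts.

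By genomic cluster, the HIST1 genes on chromosome 6 had 38 of 56 probes called at 42 µM and a median of -1.29, the HIST2 genes on chromosome 1 had 10 of 14 and -1.07, HIST3 had 2 of 3 and HIST4, a single gene on chromosome 12, 1 of 2. Split by gaps of over 500000 bases (hg19), the HIST1 probes formed 3 groups. The group at chr6:25726563-26285556 had 23 of 33 called and a median of -1.16, that at chr6:27093288-27115305 5 of 6 and -1.39, and that at chr6:27775286-27861647 10 of 17 and -1.30. At 28 µM the medians were -0.98, -1.11 and -1.06. On chromosome 1, HIST2H3D at chr1:120904981-120905060 had both probes called (median -1.47), the group at chr1:149804396-149859244 8 of 12 (-0.99) and HIST3 at chr1:228612646-228647595 2 of 3 (-0.98). HIST3H3, in the last of these, held the probe above 0. The HIST2H3D probe A_23_P115375 lists the same genes as the HIST2H3A probe, so the first and second of these groups are not fully separate. The 10 probes that list several core histone genes were all called, with a median of -1.49, and the 65 that list at most 1 had 41 called and a median of -1.15.

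**Figure D5:**
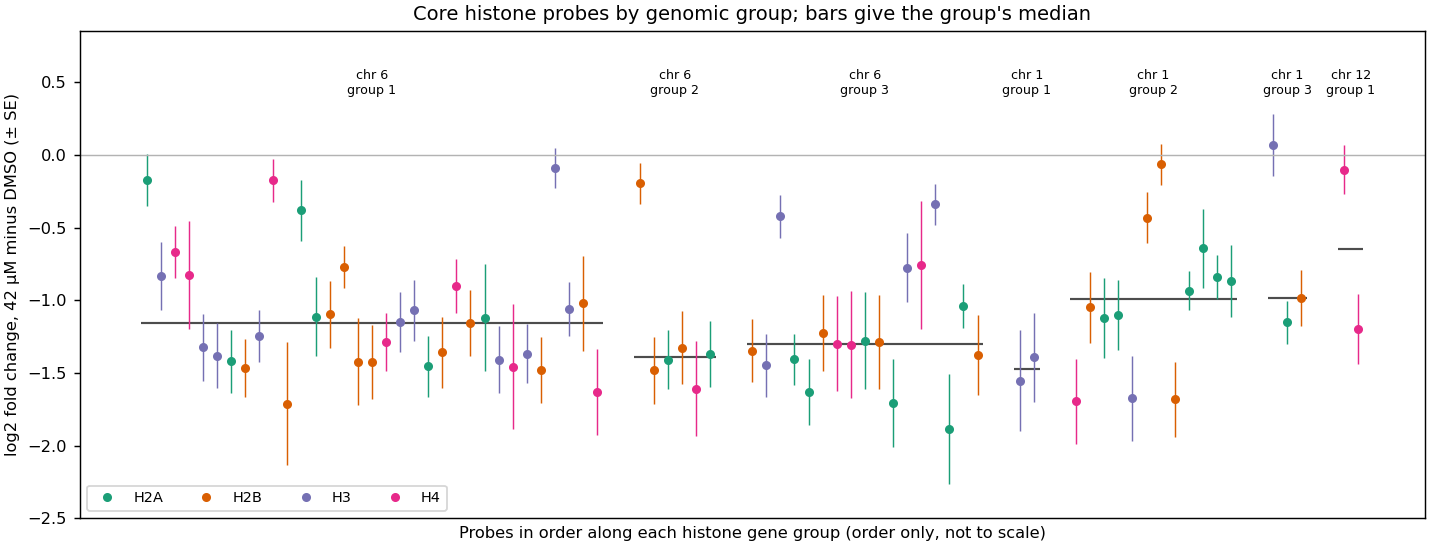
Log2 ratio at 42 µM (± SE) of the 75 probes in their order along the genome, by group and coloured by family; bars give the group's median. Medians of the 3 chromosome 6 groups lie at -1.16, -1.39 and -1.30.

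Related lists were read in the same fit, in which 1.23% of all tested probes were called lower at 42 µM and 1.41% higher. Of the linker histones, which bind the DNA between nucleosomes, the 5 replication-dependent genes HIST1H1A, HIST1H1B, HIST1H1C, HIST1H1D and HIST1H1E were called lower among 9 tested probes, where HIST1H1A gave -1.78 ± 0.21 (SE, adjusted p = 0.0112), HIST1H1B -1.49 ± 0.20 (SE, adjusted p = 0.0112), HIST1H1C -1.19 ± 0.22 (SE, adjusted p = 0.0159), HIST1H1E -1.04 ± 0.19 (SE, adjusted p = 0.0164) and HIST1H1D -0.85 ± 0.15 (SE, adjusted p = 0.0156). The replication-independent H1F0 had a log2 ratio of 0.72 ± 0.26 (SE, adjusted p = 0.172). The variant core histones, which are made outside S phase as well, had 3 of 19 probes called lower and a median of -0.28. These were H2AFX at -1.08 ± 0.21 (SE, adjusted p = 0.0188), 1 of 2 H2AFJ probes at -0.98 ± 0.16 (SE, adjusted p = 0.0126) and CENPA, the H3 of centromeres, at -0.84 ± 0.16 (SE, adjusted p = 0.0189), while the other H2AFJ probe gave -0.21 ± 0.12 (SE, adjusted p = 0.445). The 5 probes of H3F3A, which encodes the replacement histone H3.3, and the 3 of H3F3C lay between -0.31 and -0.03. Over the 2 lists, 0 probes were called higher.

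The counts of the next 3 lists stand against 1.23% of all tested probes called lower and 1.41% called higher. Of the factors that make and process histone mRNA, 3 of 31 probes were called lower and 0 higher, with a median of -0.16. These were cyclin A2 (CCNA2) at -1.29 ± 0.30 (SE, adjusted p = 0.0377), cyclin E1 (CCNE1) at -0.86 ± 0.20 (SE, adjusted p = 0.0401) and SRRT at -0.77 ± 0.15 (SE, adjusted p = 0.0192). The histone chaperones had 2 of 36 called lower and 0 higher, CHAF1B of the replication-coupled CAF-1 complex at -0.80 ± 0.19 (SE, adjusted p = 0.0379) and NASP, which holds H3 and H4, at -0.70 ± 0.18 (SE, adjusted p = 0.0480). The largest changes in that list, ASF1B at -1.72 ± 0.48 (SE, adjusted p = 0.0743) and HJURP at -0.94 ± 0.37 (SE, adjusted p = 0.220), did not pass. The DNA replication genes had 13 of 40 called lower and 0 higher, with a median of -0.63 at 42 µM and -0.38 at 28 µM. The ribonucleotide reductase subunit RRM2 gave -1.69 ± 0.34 (SE, adjusted p = 0.0215) and -1.68 ± 0.40 (SE, adjusted p = 0.0409), and thymidine kinase TK1 -1.62 ± 0.30 (SE, adjusted p = 0.0159). Further called probes were TYMS at -1.10 ± 0.22 (SE, adjusted p = 0.0183), PCNA at -1.08 ± 0.22 (SE, adjusted p = 0.0239), GINS2 at -1.05 ± 0.24 (SE, adjusted p = 0.0321), CDC45 at -0.97 ± 0.24 (SE, adjusted p = 0.0449), MCM6 at -0.88 ± 0.21 (SE, adjusted p = 0.0409), GINS1 at -0.79 ± 0.14 (SE, adjusted p = 0.0157), RFC3 at -0.78 ± 0.17 (SE, adjusted p = 0.0311), RRM1 at -0.75 ± 0.19 (SE, adjusted p = 0.0496) and POLA1 at -0.60 ± 0.15 (SE, adjusted p = 0.0437).

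By array, the DNA replication list stood at -0.49, -0.54, -0.49 and 0.11 relative to the DMSO mean on replicates 1 to 4 at 28 µM, and at -0.92, -0.97, -0.44 and -0.30 at 42 µM. The linker histones stood at -0.64, -0.74, -0.66 and -0.17 at 28 µM. Replicate 4 at 28 µM was thus at the DMSO level for replication genes and near it for linker histones and H2B, and low for H2A, H3 and H4. The part of this array in the 28 µM results beyond the values given here was not tested.

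The arrays carried 43376 gene spots each, of which 65.0% to 85.0% were well above background, lowest on replicate 3 and highest on replicate 1 at 28 µM. The 12 arrays lay on 5 slides. Of the 10 hepatocyte markers, all were above background on every array with at least 1 probe, with 0 of 15 probes called and a median of 0.10 at 42 µM. The largest changes were APOB at 0.59 ± 0.42 (SE, adjusted p = 0.580) and AFP at 0.37 ± 0.24 (SE, adjusted p = 0.540). Of the 8 markers of fibroblasts, blood and endothelial cells, PTPRC was above background on 0 arrays and the other 7 had probes above background on 7 to 12 arrays. In that list 0 of 10 tested probes were called, the largest being CD14 at -0.29 ± 0.15 (SE, adjusted p = 0.401) and CD3E at -0.25 ± 0.14 (SE, adjusted p = 0.458).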

How the data were processed

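RNA of 12 HuH-7 cultures was labelled with Cy3 by the authors and hybridised to one-colour Agilent 4x44K arrays. The scanner intensity values deposited by the authors came from Agilent Feature Extraction (version 10.7.3.1 in the submitters' processing notes). The authors also deposited a table of log2 values per probe, which was used only as an alternative. Here the mean intensities were background-corrected (Edwards), quantile-normalized across arrays and log2-transformed in limma 3.58.1 (R 4.3.3), and outlier spots and controls were left out. Probes above background on at least 2 of 4 arrays of a group were fitted together with lmFit and eBayes, with Benjamini-Hochberg adjustment over 33467 probes. The members and lists were chosen with earlier results of these data known, and the place-in-transcript grouping and the motifs after values were seen. Every core histone probe called at either dose is named, with the 2 of largest change per family whose groups do not overlap and all probes of genes whose probes differ in call. A called DNA replication probe is not reported here by name. The test was run on simulated data first. The p-values rest on the spread between the arrays of a group, moderated by eBayes over the tested probes. Each culture had its own array, so differences between slides and hybridizations are part of that spread. Replicate numbers were not used as a pairing in the main fit. Same-numbered deviations correlated at -0.46 to 0.62, and without different-numbered ones beside them these values cannot decide whether the numbers pair the samples. Probe positions are hg19, promoters GRCh38.p14. The number of arrays limits precision.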

Additional observations from a re-analysis of the deposited data

Results flagged for a closer look

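In 12 of 240 groups of 4 arrays, the gap of the highest or lowest array to its neighbour, as a share of the group's range, was above Dixon's 95% limit, and chance alone gives about 1 in 20. The H2B median in DMSO was lowest on replicate 1, at -0.11 (0.958). In HIST1H2AL, DMSO replicate 3 was low at 9.05 against 9.55 for the next array (0.974), and 28 µM replicate 2 was low at 7.04 against 8.05 (0.8495). In HIST1H2AA, 28 µM replicate 1 was high at 7.098 against 6.29 (0.838). In HIST1H2BD (A_32_P152348), 42 µM replicate 4 was high at 9.51 against 9.19 (0.872), and in HIST1H2BE (A_23_P30776), DMSO replicate 3 was high at 13.30 against 13.04 (0.889). In HIST1H3H (A_23_P333484), 28 µM replicate 2 was low at 8.29 against 8.76 (0.876). In 4 H4 genes 42 µM replicate 2 was the low array, at 9.39 against 10.68 in HIST1H4B (0.894), 15.42 against 15.81 in HIST1H4C (0.843), 7.57 against 8.58 in HIST1H4F (0.839) and 10.80 against 12.38 in HIST1H4L (0.845). In HIST2H2BE (A_24_P148321), 42 µM replicate 3 was low at 7.27 against 7.39 (0.919). The 42 µM replicate 2 array shared its slide with DMSO replicate 3 and 28 µM replicate 4. What set the flagged arrays apart was not tested.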

How the results depend on the processing

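The median of the core histone probes stayed below 0 under all 27 alternatives, from -1.43 to -1.12 at 42 µM and from -1.12 to -0.83 at 28 µM. Agilent's processed signal scaled to the 75th percentile moved the H2A median at 42 µM to -1.38, and leaving out DMSO replicate 2 moved the H4 median from -1.24 to -0.95 at 42 µM and from -1.31 to -0.98 at 28 µM. The count of called probes was less stable, as it was over all 33467 probes (885 called at 42 µM and 0 at 28 µM). At 42 µM it was 0 with the slide as a fixed block (1 over all probes) and ran from 0 to 53 when 1 array was left out, with 0 without DMSO replicate 2 or 42 µM replicate 2 (0 over all probes in both) and 32 without DMSO replicate 4 (321 over all probes). At 28 µM it ran from 0 to 37 when 1 array was left out, with 37 without 28 µM replicate 4, where 719 of all probes were called, and 0 of all probes in each other such fit. With the replicate number as a block, 52 probes were called at 42 µM and 1 at 28 µM (HIST1H2AB, adjusted p = 0.0371 by limma). Over all probes 1366 and 2 were called, and whether the numbers pair the samples was not decided. Of the single-probe values, 3831 kept their direction and side of the threshold, 261 lost a call, 74 gained one and 0 reversed. Probes near background, such as the far HIST2H2BE and HIST1H2BJ probes, allow no statement on a fall. The cause of these shifts was not tested.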
